A study of Mus musculus with 8 samples.

Results

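The 9 genes described here encode cytochrome P450 enzymes of the mouse intestine. They are the Cyp3a enzymes Cyp3a11, Cyp3a13 and Cyp3a25, the Cyp2c enzymes Cyp2c65 and Cyp2c66, and single members of other subfamilies, namely Cyp2b10, Cyp2d26, Cyp4f14 and the mitochondrial enzyme Cyp27a1. They were chosen by name from the 13081 genes that had a value, and each was found by its Ensembl identifier and by the position of its exons on GRCm38. The samples were cultures of small intestinal crypts grown as organoids in Matrigel with IntestiCult medium, 4 from MG53-TG mice and 4 from their wild type (WT) littermates, with no drug or injury given to either group in the labels. MG53-TG mice overexpress MG53 (gene symbol Trim72) in all tissues, and the promoter of the transgene and the age of the mice are not given in the sources used here. The labels do not say whether the 4 samples of a group came from separate mice, so the p-values below measure only the spread between these samples. In the text of the study the organoid cultures are also described as MG53;Lgr5 against Lgr5, that is, on an Lgr5 reporter background, which the labels do not mention.

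Cytochrome P450 enzymes are haem proteins that insert 1 oxygen atom into drugs, plant compounds, steroids, bile acids and fatty acids. Most of them sit in the endoplasmic reticulum and draw electrons from NADPH through the reductase Por and from cytochrome b5, while a few are mitochondrial and use adrenodoxin. In the small intestine they are found mainly in the enterocytes of the villus, where Cyp3a and Cyp2c enzymes act on swallowed compounds before these reach the liver, and their genes are classic targets of the xenobiotic receptors PXR (Nr1i2) and CAR (Nr1i3).

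The deposited values are FPKM (fragments counted per unit of transcript length and of library size) for the start, end and exon events of each gene, and a gene's value is the sum over its start events, or over its end events where these were higher. FPKM are scaled for length, so levels may be compared between genes, but sequencing depth is unknown. Differences were tested with limma on log2(FPKM + 1), with p-values adjusted over the 10271 genes whose mean reached 0.5 FPKM, and a gene is called at an adjusted p of at most 0.05. Trim72 had no entry in the 4 WT samples and its FPKM in the MG53-TG samples 1 to 4 were 16.4, 27.4, 31.9 and 36.5, as the labels state. All 8 epithelial identity markers had values in both groups, and 1 was higher in MG53-TG (Vil1, from 98.2 to 213 FPKM on average), 5 were lower (Cdh1, Krt8, Krt18, Cdx2 and Cldn7) and 2 were not called (Epcam, at 438 and 443 FPKM, and Krt19). The 8 fibroblast and smooth muscle markers summed to at most 0.0881 FPKM in WT and 4.70 FPKM in MG53-TG, and the 8 immune markers to between 3.77 and 9.24 FPKM in WT and between 0.609 and 1.47 FPKM in MG53-TG, where Cd68 was lower (limma adjusted p = 0.000532). Both tested fibroblast genes, Col3a1 and Col1a2, had no entry in WT and were called higher (limma adjusted p = 0.000596 and 0.00355), in a fit that took their absent value in MG53-TG sample 1 as missing. They reached a mean of 0.5 FPKM only through MG53-TG. The 15 enterocyte markers summed to between 719 and 828 FPKM in WT, and to 9457, 8980, 11542 and 11885 FPKM in MG53-TG samples 1 to 4. The 12 stem cell markers went the other way, with sums between 462 and 625 FPKM in WT and of 247, 263, 95.4 and 59.9 FPKM in MG53-TG samples 1 to 4. MG53-TG samples 3 and 4 thus stood apart from 1 and 2 in these markers, and the members' results are given below with all 4 and without either pair. In bulk RNA, more cells of a type cannot be told apart from more RNA per cell, and what the shift in markers contributes to the differences in P450 genes was not tested.

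Of the 9 members, 8 were higher in MG53-TG, none was lower, and Cyp27a1 was under the filter. Across all genes tested, 15.5% were called higher and 29.2% lower in MG53-TG, 44.7% in all. Of all calls, 34.6% were higher (1592 higher and 3004 lower), a split that moved to 2102 higher and 2105 lower under median-of-ratios scaling and to 1954 higher and 2408 lower under quantile normalization. These scalings shifted the median of the log2 fold changes over all genes by 0.16 and 0.12. The median log2 fold change of the 8 tested members was 2.89, against -0.17 over all genes tested. All 8 also passed the filter on their WT values alone, since the lowest WT value among them was 4.39 FPKM. In each of the 8 the groups did not overlap, as was so in 15.7% of all genes tested with MG53-TG above and in 44.8% in either direction. For each the exact permutation test over the 70 relabellings gave a two-sided p of 0.0286, the smallest that 4 against 4 samples can give. Summed over the 9 members, P450 RNA was 225 ± 15.9 FPKM in WT and 1940 ± 407 FPKM in MG53-TG (SD, n = 4 each), or 0.0875% and 0.734% of the FPKM of all genes.

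**Figure D1:**
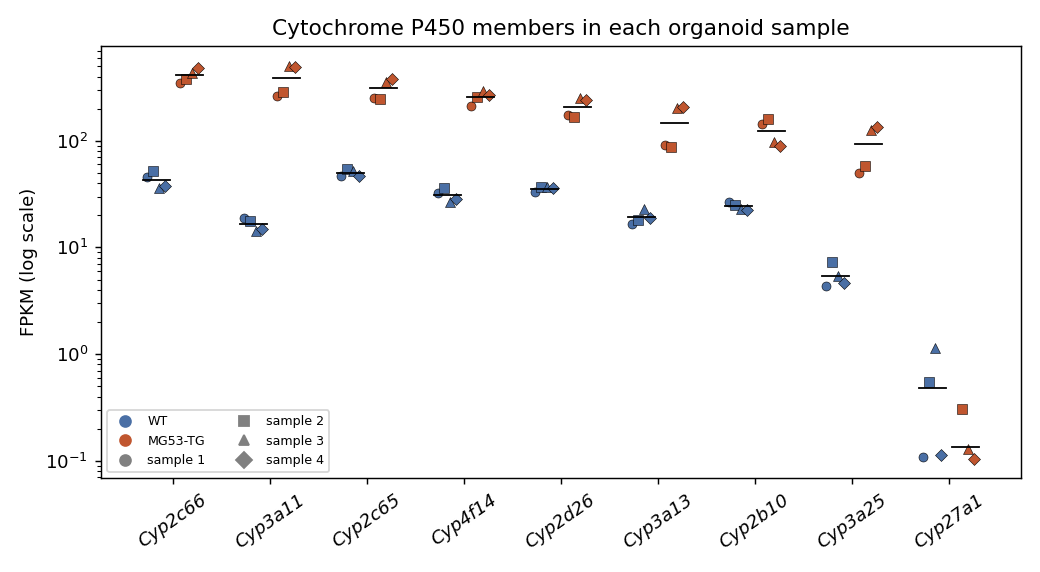
FPKM of the 9 members on a log scale in the 4 WT samples (blue) and the 4 MG53-TG samples (orange), with marker shapes for samples 1 to 4 and a black bar at each group mean. In 8 genes every MG53-TG sample lies above every WT sample, from 88.8 FPKM upward for Cyp2b10 and from 261 FPKM upward for Cyp3a11. Cyp27a1 lies near or under 1 FPKM in all samples, and its MG53-TG sample 1, with no entry, is not drawn.

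Promoters are shown for the members that were highest in MG53-TG and for Cyp3a25, the 2 Cyp3a and 2 Cyp2c genes whose upstream sequences held a motif of a nuclear receptor type. Each runs 5′ to 3′ over 300 bases, 250 before the RefSeq start site and 50 from it on, in GRCm38.p6. In capitals are AGGTCA, the half-site bound by many nuclear receptors, searched on both strands (its reverse complement is TGACCT), and CAAAGTCC, a core of the element bound by HNF4 factors, also searched on both strands. The motifs were chosen after the promoters had been read. The Cyp3a11 window is chr5:145879805-145880104, minus strand, that of Cyp3a25 chr5:146009568-146009867, minus strand, that of Cyp2c65 chr19:39060756-39061055, plus strand, and that of Cyp2c66 chr19:39113648-39113947, plus strand.
Cyp3a11 promoter: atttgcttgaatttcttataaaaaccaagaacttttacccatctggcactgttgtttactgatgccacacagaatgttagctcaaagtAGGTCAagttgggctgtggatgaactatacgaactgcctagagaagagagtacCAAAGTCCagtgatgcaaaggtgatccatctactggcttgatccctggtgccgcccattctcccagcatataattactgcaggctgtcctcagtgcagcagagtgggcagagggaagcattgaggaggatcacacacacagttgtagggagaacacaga
Cyp3a25 promoter: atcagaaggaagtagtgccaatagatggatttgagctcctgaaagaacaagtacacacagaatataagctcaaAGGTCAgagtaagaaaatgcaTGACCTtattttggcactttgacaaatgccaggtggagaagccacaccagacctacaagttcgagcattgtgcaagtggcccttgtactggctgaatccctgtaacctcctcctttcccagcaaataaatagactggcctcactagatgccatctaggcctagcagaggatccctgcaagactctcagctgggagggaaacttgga
Cyp2c65 promoter: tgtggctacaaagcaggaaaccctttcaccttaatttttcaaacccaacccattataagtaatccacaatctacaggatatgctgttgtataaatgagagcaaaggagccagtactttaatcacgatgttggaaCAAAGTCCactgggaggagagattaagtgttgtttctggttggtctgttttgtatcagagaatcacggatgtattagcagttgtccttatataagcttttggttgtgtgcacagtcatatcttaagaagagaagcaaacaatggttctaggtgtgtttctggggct
Cyp2c66 promoter: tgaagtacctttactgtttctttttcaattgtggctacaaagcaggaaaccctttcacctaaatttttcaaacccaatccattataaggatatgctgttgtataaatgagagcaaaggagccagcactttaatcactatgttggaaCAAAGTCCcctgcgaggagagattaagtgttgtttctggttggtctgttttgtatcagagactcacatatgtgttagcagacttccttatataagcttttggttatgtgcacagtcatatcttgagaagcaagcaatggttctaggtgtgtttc

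AGGTCA was present in the windows of 2 of the 9 members and in 16.3% of 32851 promoter windows of the same length. It began at position -162 in Cyp3a11 (with the start site at 0), and Cyp3a25 held it at -177 and, on the other strand, at -156. CAAAGTCC was present in 3 of the 9 members, at -109 in Cyp3a11, -116 in Cyp2c65 and -104 in Cyp2c66, and in 1.42% of all windows. TATAAA, also searched, was present in 4 of the 9 members and in 13.6% of all windows. Because the motifs were chosen after these promoters had been read, none of these shares can show an enrichment. The Cyp2c65 and Cyp2c66 windows are not independent of each other: aligned end to end they had 256 identical bases, 15 mismatches and 58 gap positions, so that 94.5% of aligned bases were the same. The deposited first exon of Cyp2c66 began at the RefSeq start, those of Cyp2c65 and Cyp3a25 lay 9 and 19 bases inside the transcript, and that of Cyp3a11 lay 110 bases upstream of it, which puts the CAAAGTCC of Cyp3a11 inside the deposited first exon. A match is a description of the sequence and no evidence that a factor binds there.

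Among the Cyp3a enzymes, which oxidise steroids, bile acids and a wide range of drugs, Cyp3a11 is the main form of mouse liver and gut. Its gene (ENSMUSG00000056035) lies at chr5:145854426-145879964 on the minus strand. Cyp3a11 was at 18.8, 17.8, 14.4 and 14.8 FPKM in WT samples 1 to 4, and MG53-TG samples 1 to 4 had 261, 289, 507 and 497 FPKM. The lowest MG53-TG value was 13.9 times the highest WT value, and samples 3 and 4 were the highest of all. Means were 16.4 ± 2.21 and 389 ± 131 FPKM (SD, n = 4 each), a ratio of 23.6, and the limma log2 fold change of 4.43 ± 0.23 (SE; adjusted p = 3.40e-06) was the 14th most positive of all genes tested.

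Cyp3a13, a Cyp3a form that the intestine expresses, has its gene apart from the others on the same chromosome (ENSMUSG00000029727, chr5:137892932-137921619, minus strand). It was at 16.7, 18.0, 23.2 and 18.9 FPKM in WT and at 90.7, 87.5, 205 and 208 FPKM in MG53-TG. Its 4 MG53-TG values fell into a pair near 90 and a pair above 200 FPKM, all of them over the WT range. The mean rose from 19.2 ± 2.79 to 148 ± 67.9 FPKM, 7.71 times, with a limma log2 fold change of 2.77 ± 0.31 (adjusted p = 0.00018).

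Cyp3a25 (ENSMUSG00000029630, chr5:145977194-146009618, minus strand) was the lowest of the 3. It was at 4.39, 7.23, 5.39 and 4.61 FPKM in WT and at 50.3, 57.8, 127 and 135 FPKM in MG53-TG. Again samples 3 and 4 lay above samples 1 and 2. Its mean rose 17.1 times, from 5.41 ± 1.29 to 92.7 ± 44.9 FPKM, with a limma log2 fold change of 3.75 ± 0.33 (adjusted p = 5.35e-05).

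The 3 Cyp3a genes did not rise by the same factor. Cyp3a11 made up 47.2, 41.4, 33.5 and 38.6% of their summed FPKM in WT and 64.9, 66.5, 60.4 and 59.1% in MG53-TG, while Cyp3a13 went from 46.7 ± 5.98% to 23.0 ± 2.13% and Cyp3a25 from 13.1 ± 2.54% to 14.3 ± 1.66%. In WT, Cyp3a11 and Cyp3a13 had overlapping ranges, and in MG53-TG Cyp3a11 was above Cyp3a13 in all 4 samples. These shares are described and not tested. Of the 9 annotated Cyp3a genes, 4 had a value and 3 passed the filter, and reads shared with near-identical Cyp3a copies may have been assigned to one of them by the authors' counting.

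**Figure D2:**
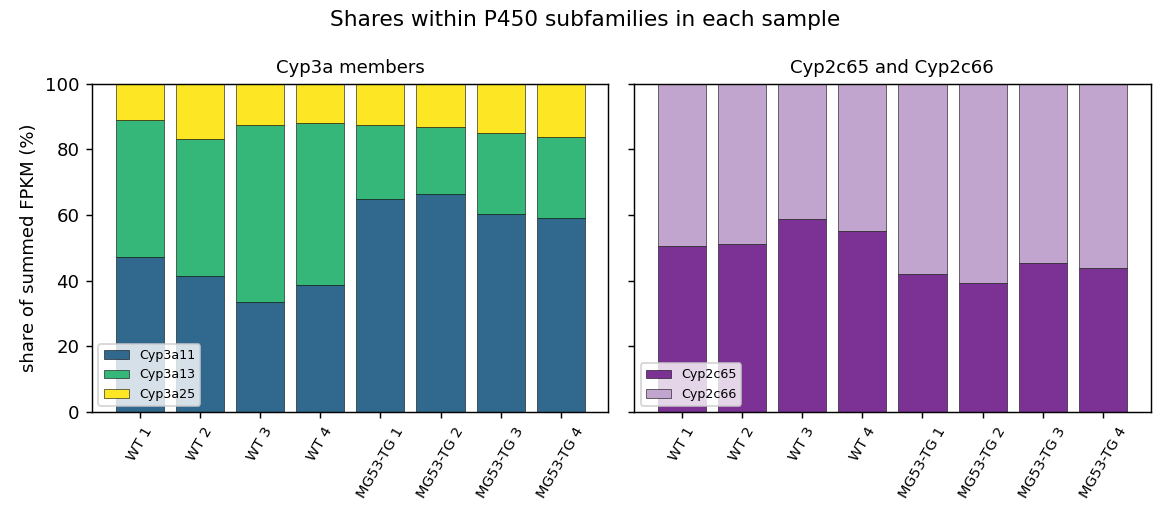
Share of each Cyp3a member in their summed FPKM (left) and of Cyp2c65 and Cyp2c66 in theirs (right), in percent, for each of the 8 samples. Cyp3a11 takes 33.5 to 47.2% of the Cyp3a bars in WT and 59.1 to 66.5% in MG53-TG, and Cyp2c65 takes 50.4 to 58.7% of its bars in WT and 39.3 to 45.3% in MG53-TG.

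Cyp3a25 was the member with the most deposited exon events. A 152-base exon at chr5:145982484-145982635, which none of its transcripts in the GENCODE annotation contains, had no entry in WT and its inclusion in MG53-TG samples 1 to 4 was listed as 11.5, 16.0, 52.4 and 49.0 FPKM. That is 22.9, 27.8, 41.2 and 38.6% of the FPKM of the transcripts that span it, and the percentages were higher in MG53-TG samples 3 and 4 than in samples 1 and 2. Other Cyp3a25 events were listed in WT at values down to 0.0003 FPKM, which is no detection limit for an unannotated exon. Cyp3a25 as a whole was at 4.39 to 7.23 FPKM in WT and at 50.3 to 135 FPKM in MG53-TG. With depth unknown, a missing entry at the WT level does not show that WT lacked the exon. An unannotated 3399-base exon at chr5:145978148-145981546, which reads through from the annotated 163-base exon, was listed at 0.603 and 0.659 FPKM in WT samples 2 and 3 only, and at 11.5, 9.93, 42.3 and 49.0 FPKM in MG53-TG.

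Cyp2c65 and Cyp2c66 belong to the mouse Cyp2c cluster, whose enzymes oxidise arachidonic acid and drugs, and they lie next to each other on chromosome 19. Cyp2c65 (ENSMUSG00000067231, chr19:39061015-39093944, plus strand) was at 46.6, 54.1, 51.7 and 46.4 FPKM in WT and at 252, 248, 359 and 382 FPKM in MG53-TG. It was the highest member in WT. Its mean rose 6.24 times, from 49.7 ± 3.82 to 310 ± 70.0 FPKM, with a limma log2 fold change of 2.59 ± 0.16 (adjusted p = 6.81e-06).

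Cyp2c66 (ENSMUSG00000067229, chr19:39113898-39187072, plus strand) was at 45.8, 51.6, 36.4 and 37.7 FPKM in WT and at 346, 383, 433 and 485 FPKM in MG53-TG. It was the member with the highest mean in MG53-TG, though its range there overlapped that of Cyp3a11. The mean rose 9.60 times, from 42.9 ± 7.16 to 412 ± 60.5 FPKM, with a limma log2 fold change of 3.24 ± 0.14 (adjusted p = 1.40e-06). Cyp2c65 was above Cyp2c66 in all 4 WT samples, with 53.9 ± 3.83% of their sum, and below it in all 4 MG53-TG samples, with 42.7 ± 2.61%. A 163-base exon of Cyp2c66 (chr19:39141891-39142053, in the protein-coding transcript) was included in 92.7, 93.2 and 92.4% of the spanning FPKM in WT samples 1, 2 and 4 and in 91.3 ± 1.20% in MG53-TG, while WT sample 3 had no entry for transcripts that skip it.

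Cyp2b10, the phenobarbital-inducible enzyme and the standard target gene of CAR, lies at chr7:25897620-25926624 on the plus strand (ENSMUSG00000030483). It was at 26.6, 25.3, 23.0 and 22.4 FPKM in WT and at 144, 161, 96.4 and 88.8 FPKM in MG53-TG. Here samples 1 and 2 were the high pair and samples 3 and 4 the low pair, the reverse of the order in the other members that rose. The mean rose 5.03 times, from 24.3 ± 1.96 to 122 ± 35.2 FPKM, with a limma log2 fold change of 2.24 ± 0.19 (adjusted p = 4.37e-05).

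A coding cassette exon of Cyp2b10 is shown because its inclusion stayed at a like level while the gene rose. It is exon 9 of 10 of transcript Cyp2b10-201, 27 bases or 9 codons long, at chr7:25925373-25925399. The exon is in capitals between 21 bases of the neighbouring exons on either side.
Cyp2b10 exon: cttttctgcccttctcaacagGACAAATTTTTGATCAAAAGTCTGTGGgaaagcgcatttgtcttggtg

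The exon was included in 10.6, 8.73 and 7.04% of the spanning FPKM in WT samples 1, 2 and 4, had no entry in WT sample 3, and was included in 7.50, 6.59, 7.67 and 5.11% in MG53-TG. The ranges of the groups overlapped. A start site within the gene, at position 25916766, carried 0.437 ± 0.0979% of Cyp2b10 start FPKM in WT and 0.152 ± 0.112% in MG53-TG, so nearly all Cyp2b10 RNA began at the annotated first exon in both groups.

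Cyp2d26 is a member of the Cyp2d subfamily, which is known for oxidising amine-containing drugs (ENSMUSG00000022445, chr15:82790101-82794294, minus strand). Its values were 33.1, 36.6, 36.7 and 36.2 FPKM in WT and 175, 166, 254 and 243 FPKM in MG53-TG. WT sample 1 was the lowest WT value. The mean rose 5.87 times, from 35.7 ± 1.74 to 209 ± 45.6 FPKM, with a limma log2 fold change of 2.50 ± 0.15 (adjusted p = 6.70e-06). Its second end site, at position 82791659, took 3.80 ± 2.75% of the end FPKM in WT and 2.83 ± 1.30% in MG53-TG, with overlapping ranges.

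Cyp4f14 belongs to the Cyp4f enzymes, which hydroxylate leukotriene B4 and fatty acids at the omega end (ENSMUSG00000024292, chr17:32905070-32917342, minus strand). It was at 32.4, 35.8, 26.7 and 28.7 FPKM in WT and at 210, 260, 292 and 267 FPKM in MG53-TG. Its MG53-TG values were the closest together of the 8 members relative to their mean. The mean rose 8.31 times, from 30.9 ± 4.04 to 257 ± 34.4 FPKM, with a limma log2 fold change of 3.01 ± 0.13 (adjusted p = 1.26e-06). A second start site at position 32917303 carried 22.2 FPKM in MG53-TG sample 3 and at most 4.53 FPKM in every other sample.

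Cyp27a1, the mitochondrial sterol 27-hydroxylase of bile acid synthesis, did not share the rise (ENSMUSG00000026170, chr1:74713574-74737892, plus strand). It was at 0.108, 0.551, 1.14 and 0.112 FPKM in WT, while MG53-TG sample 1 had no entry for it and MG53-TG samples 2 to 4 had 0.305, 0.129 and 0.104 FPKM. All values were low and the groups overlapped. From the fit without the filter its limma log2 fold change was -0.33 ± 0.21 (adjusted p = 0.265), and the exact permutation test gave p = 0.257, so no difference was detectable at these levels.

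The order of the members by mean changed between the groups. In WT it ran Cyp2c65, Cyp2c66, Cyp2d26, Cyp4f14, Cyp2b10, Cyp3a13, Cyp3a11, Cyp3a25 and Cyp27a1, and neighbours had overlapping ranges except Cyp4f14 over Cyp2b10, Cyp3a11 over Cyp3a25 and Cyp3a25 over Cyp27a1. In MG53-TG it ran Cyp2c66, Cyp3a11, Cyp2c65, Cyp4f14, Cyp2d26, Cyp3a13, Cyp2b10, Cyp3a25 and Cyp27a1, and the only neighbours without overlap were Cyp3a25 and Cyp27a1. Cyp3a11 thus went from rank 7 to rank 2.

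Among the MG53-TG samples the members that rose varied in the same direction, except Cyp2b10. Cyp3a11, Cyp3a13, Cyp3a25, Cyp2c65, Cyp2c66, Cyp2d26 and Cyp4f14 were each higher in samples 3 and 4 than in samples 1 and 2, and Cyp2b10 was lower. Without MG53-TG samples 3 and 4 the log2 fold changes were 3.99 for Cyp3a11, 2.17 for Cyp3a13, 3.12 for Cyp3a25, 2.31 for Cyp2c65, 3.07 for Cyp2c66, 2.60 for Cyp2b10, 2.22 for Cyp2d26 and 2.88 for Cyp4f14. Without samples 1 and 2 they were 4.86, 3.37, 4.39, 2.87, 3.40, 1.89, 2.77 and 3.14 in the same order. Every one of these fits called the gene, with limma adjusted p-values of at most 0.000131. Cyp3a13 and Cyp3a25 were the members whose size depended most on the pair kept.

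**Figure D3:**
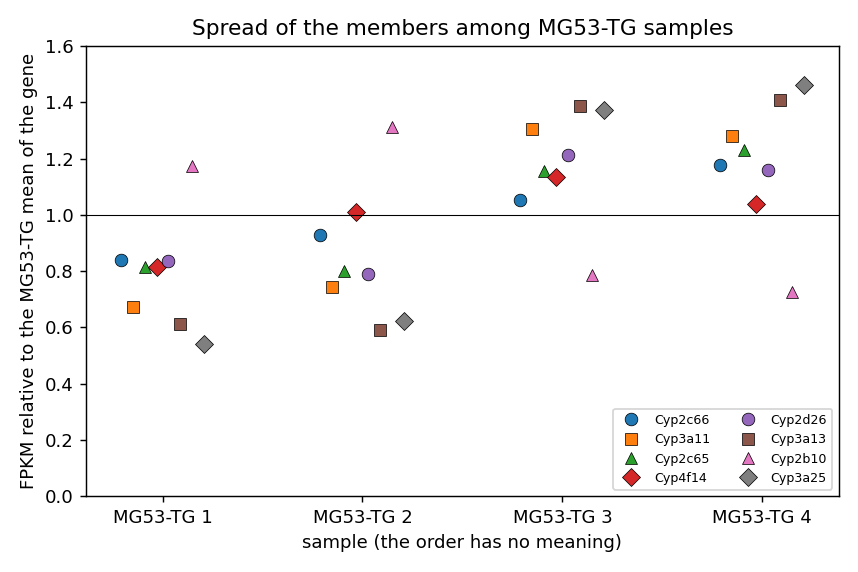
FPKM of the 8 members that rose in each MG53-TG sample, divided by the gene's mean over the 4 MG53-TG samples, with 1 marker per gene. Cyp2b10 lies above 1 in samples 1 and 2 and below 1 in samples 3 and 4, and Cyp3a13 and Cyp3a25 show the widest spread in the opposite direction.

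The other genes of the superfamily included genes that were higher, lower and not called. Of 90 other protein-coding P450 genes in the annotation, 32 had a value and 22 were tested, of which 14 were higher, 2 lower and 6 not called, with a median log2 fold change of 1.16. Beside them, 15.5% of all genes tested were called higher and 29.2% lower. The counts and the median include genes that passed the filter only through the group in which they were high. These were Cyp2c23, Cyp2c37 and Cyp2c38 through MG53-TG (WT means of 0, 0 and 0.203 FPKM) and Cyp2e1 through WT. Cyp4v3, an omega-hydroxylase of fatty acids, rose from 6.70 ± 0.674 to 82.7 ± 24.1 FPKM (log2 fold change 3.40 ± 0.20, limma adjusted p = 5.71e-06). Cyp2w1 rose from 1.52 ± 0.471 to 19.1 ± 2.68 FPKM (log2 fold change 3.01 ± 0.17, limma adjusted p = 5.44e-06), and Cyp4b1 from 3.75 ± 0.423 to 29.7 ± 4.22 FPKM (2.69 ± 0.13, limma adjusted p = 2.22e-06). Cyp2c37 had no entry in WT, whereas MG53-TG samples 1 to 4 had 8.99, 9.03, 3.77 and 2.78 FPKM, so like Cyp2b10 it was higher in samples 1 and 2. The gene lower by the most was Cyp2e1, the ethanol-oxidising P450, at 1.58, 1.29, 2.51 and 1.34 FPKM in WT and with no entry in MG53-TG, and Cyp39a1, an oxysterol hydroxylase, fell from 4.42 ± 0.784 to 2.59 ± 0.634 FPKM (limma adjusted p = 0.0186).

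Most tested genes of the Cyp2c subfamily were higher. Of 15 annotated Cyp2c genes, 9 were tested and 8 were higher in MG53-TG, the exception being Cyp2c70. The 8 include Cyp2c23, Cyp2c37 and Cyp2c38, which passed the filter only through MG53-TG, with WT means of 0, 0 and 0.203 FPKM. Whether these genes were counted thus depended on the group in which they were high. Cyp2c55, chosen for mention after its values were seen, was the most abundant P450 gene of all, at 131 ± 4.15 FPKM in WT and 628 ± 57.8 FPKM in MG53-TG (log2 fold change 2.24 ± 0.08, limma adjusted p = 4.81e-07). Over all P450 genes with a value the summed FPKM was 501 ± 20.1 in WT and 3142 ± 592 in MG53-TG, and the 9 members were 44.9 ± 1.64% and 61.5 ± 1.82% of it. In the Cyp4f subfamily 4 genes were tested, and Cyp4f14 and Cyp4f40 were higher while Cyp4f13 and Cyp4f17 were not called. The Cyp2d subfamily had Cyp2d26 higher and Cyp2d22 not called, at 1.84 ± 1.31 FPKM in WT and 0.993 ± 0.423 FPKM in MG53-TG.

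**Figure D4:**
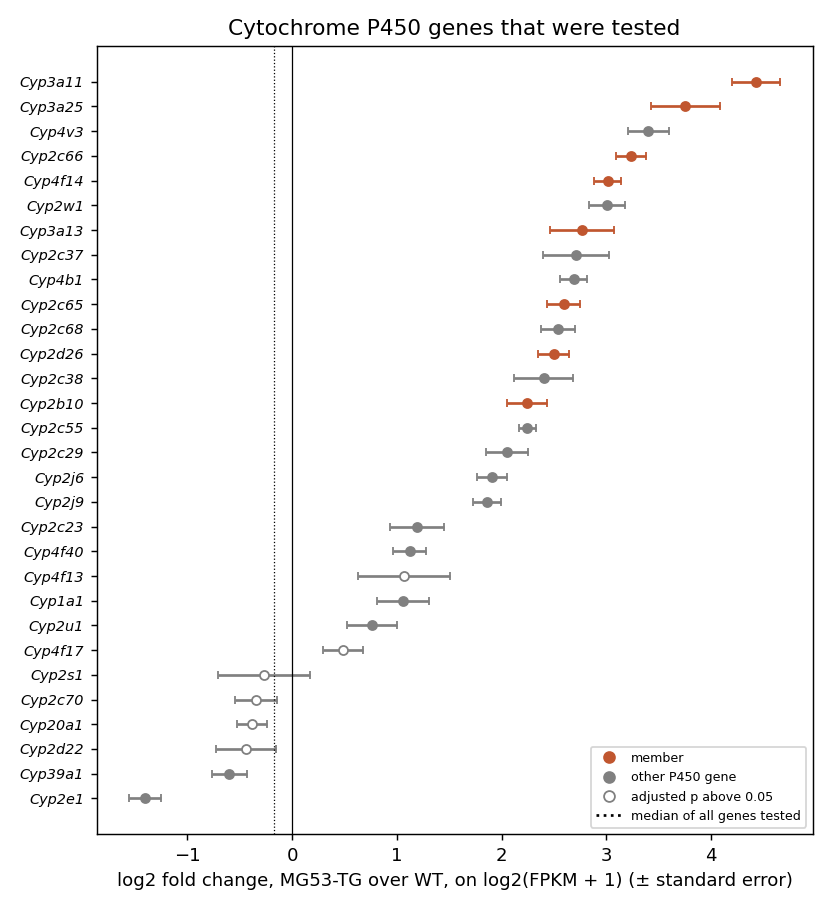
Log2 fold change of MG53-TG over WT on log2(FPKM + 1), with its standard error, for the 30 P450 genes tested. The members (orange) lie between 2.24 and 4.43, filled circles are called genes, open circles are genes with an adjusted p above 0.05, and the dotted line is the median of all genes tested (-0.17).

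A P450 enzyme needs haem and electrons, and the genes that supply them gave mixed results. Of 19 such genes, 18 were tested, 7 were higher, 2 lower and 9 not called, with a median log2 fold change of 0.22. Over all genes tested, 15.5% were called higher and 29.2% lower. The called share of this list was thus close to the 44.7% over all genes. Por, the reductase that serves all microsomal P450 enzymes, was at 45.5, 35.6, 45.2 and 42.3 FPKM in WT and at 53.5, 45.1, 61.8 and 69.9 FPKM in MG53-TG. The groups overlapped slightly, with a limma log2 fold change of 0.43 ± 0.15 (adjusted p = 0.0401), while the summed members were 8.62 times higher. Cytochrome b5 and its reductase rose more. Cyb5a went from 162 ± 5.43 to 567 ± 200 FPKM (log2 fold change 1.74, limma adjusted p = 0.000437), Cyb5r3 from 46.2 ± 1.67 to 167 ± 65.1 FPKM (1.75, limma adjusted p = 0.000741), and the mitochondrial outer membrane form Cyb5b from 106 ± 11.3 to 216 ± 6.36 FPKM (1.02, limma adjusted p = 4.89e-05). Hmox1, the haem-degrading oxygenase, fell from 10.4 ± 1.14 to 4.30 ± 0.491 FPKM (limma adjusted p = 0.000165).

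The receptors that sense xenobiotics and lipids were tested in 12 of 14 cases, with 7 higher, 1 lower and 4 not called and a median log2 fold change of 0.58. The shares over all genes tested were 15.5% higher and 29.2% lower. Nr1i3 (CAR) was at 2.70, 3.68, 3.92 and 1.72 FPKM in WT and at 40.4, 40.4, 80.1 and 95.4 FPKM in MG53-TG. It showed the largest change of the list (log2 fold change 3.96 ± 0.32, limma adjusted p = 3.34e-05), and its MG53-TG samples 3 and 4, the higher ones, were those in which Cyp2b10 was lower. Both genes were higher in MG53-TG than in WT, and a link between them was not tested. Nr1i2 (PXR) rose less, from 10.2 ± 0.502 to 22.5 ± 2.46 FPKM (1.07 ± 0.10, limma adjusted p = 9.37e-05). Hnf4g, an intestinal HNF4 factor, rose from 15.5 ± 0.928 to 97.6 ± 28.6 FPKM (2.54 ± 0.18, limma adjusted p = 1.53e-05), whereas Hnf4a was lower, at 148 ± 7.88 and 109 ± 8.15 FPKM (-0.44 ± 0.08, limma adjusted p = 0.00307). The bile acid receptor Nr1h4 rose from 7.41 to 28.8 FPKM (log2 fold change 1.79) and Ppara, the receptor of fatty acids, from 5.29 to 14.4 FPKM (1.26). Ahr, the receptor that drives Cyp1a1, was at 2.43 ± 0.778 FPKM in WT and 1.70 ± 0.938 FPKM in MG53-TG (limma adjusted p = 0.294). Cyp1a1 itself, named after its values were seen, was called higher, at 0.777 ± 0.171 FPKM in WT and 2.89 ± 1.40 FPKM in MG53-TG (1.06 ± 0.25 on the log2 scale, limma adjusted p = 0.00889).

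Enzymes of the next step of drug metabolism, conjugation and hydrolysis, were higher in 20 of 22 tested genes, none was lower, and the median log2 fold change was 1.42. Across all genes tested the called shares were 15.5% higher and 29.2% lower. The 20 include Ces2b and Ces1g, which passed the filter only through MG53-TG (WT means of 0.109 and 0.445 FPKM). The carboxylesterases Ces1f (from 1.80 to 79.2 FPKM, log2 fold change 4.72 ± 0.33, limma adjusted p = 1.70e-05) and Ces1d (from 5.13 to 47.4 FPKM, 2.77 ± 0.47, limma adjusted p = 0.00195), the sulfotransferase Sult1b1 (from 8.67 to 165 FPKM, 3.96 ± 0.34, limma adjusted p = 4.37e-05) and the soluble epoxide hydrolase Ephx2 (from 8.64 to 91.6 FPKM, 3.17 ± 0.27, limma adjusted p = 4.85e-05) changed the most. Of 13 transporters tested, 8 were higher and 2 lower, with a median of 0.83, beside 15.5% higher and 29.2% lower over all genes tested. Among them the efflux pumps Abcb1a (from 37.6 ± 3.15 to 89.8 ± 2.14 FPKM) and Abcg2 (from 8.60 ± 1.72 to 24.1 ± 5.59 FPKM) and the uptake carrier Slco2b1 (from 4.62 ± 2.04 to 13.1 ± 2.99 FPKM) rose, and Slco2a1 had no entry in WT and 0.476 to 1.67 FPKM in the 3 MG53-TG samples with a value. Slco2a1 is counted among the 8 higher transporters and passed the filter only through MG53-TG.

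Markers of other cell types stand beside these values as follows, where 15.5% of all genes tested were called higher and 29.2% lower. All 14 tested enterocyte markers were higher, with a median log2 fold change of 3.36, none of 12 stem cell markers was higher and 8 were lower, and of 8 Paneth cell markers 7 were lower and 1 higher. Goblet cell markers were lower in 6 of 8, and enteroendocrine markers higher in 5 of 10. Markers of the proximal small intestine were higher in 7 of 10 and lower in 2 (Cybrd1 and Cdx1), and those of the distal small intestine were higher in 4 of 9, lower in 3 (Slc10a2, Muc3a and Fgf15) and not called in 2. The distal list summed to 275 and 296 FPKM in MG53-TG samples 3 and 4 against 88.8 to 103 FPKM in all other samples, mostly through Guca2a, which was not called (138 and 170 FPKM in those samples), and Ggt1 (85.2 and 70.3 FPKM). Of the 10 hepatocyte markers, Tat, Cyp7a1, Ahsg and Hamp had no entry in any sample, and Alb was at 0.704 FPKM in WT and had no entry in MG53-TG. The hepatocyte list summed to 290 to 331 FPKM in WT and 195 to 208 FPKM in MG53-TG, nearly all of it from Cps1 and Ttr, and 2 of its 3 tested genes were lower. Some genes in these counts passed the filter only through the group in which they were high. These were Defa21 and Defa22 (Paneth), Tpsg1 (goblet), Slc10a2, Muc3a and Fgf15 (distal) and Cyp2e1 (hepatocyte) through WT, and Slc51a (distal) through MG53-TG. The part of any of these cell types in the P450 results was not tested. None of the 8 tuft cell markers passed the filter.

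For the members with the highest mean FPKM, the genes with the most similar pattern were sought by Pearson's r of log2(FPKM + 1) over the 8 samples. For Cyp2c66 they were Lad1 (r = 0.9992), Apob (0.9992) and Fbp2 (0.9983). For Cyp3a11 they were Galm (0.9996), Apoa4 (0.999) and Enpep (0.9988), of which the lipoprotein gene Apoa4 and the brush border peptidase gene Enpep are enterocyte genes. For Cyp2c65 they were Gtf2b (0.9995), Smim24 (0.9991) and Adh6a (0.9991). The 8 points of each comparison fall into 2 groups by genotype, so any gene that separates the groups has a high r.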

How the data were processed

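RNA from 4 WT and 4 MG53-TG organoid samples was sequenced in bulk. According to the study's methods and the submitters' processing notes, the authors trimmed reads with Cutadapt 1.9.1, aligned them to mm10 with HISAT2 2.0.1 and counted with HTSeq 0.6.1, and DESeq2 is also named. The deposited values are FPKM per transcript event of 20 kinds, 1 file per sample, so raw counts, depth and counting errors are unknown. Events were assigned by the identifier in the file and by a shared exon boundary in GENCODE vM21 (GRCm38). A coordinate of the event had to equal the start or end of an exon on the same strand. Of 128369 events, 89.2% shared such a boundary with the named gene. Absent values were treated as missing if the remaining samples of the same group reached a median of 0.5 FPKM, and were otherwise set to 0. Differences were tested with limma 3.58.1 (R 4.3.3, trended variance, two-sided, Benjamini-Hochberg over the 10271 genes whose mean reached 0.5 FPKM, pseudocount 1). A fold change on log2(FPKM + 1) understates that of low genes. Single members were also compared by an exact permutation test over 70 relabellings. The script was tested on simulated data in which both groups had the means and spread of the WT samples. Of 200 genes changed among 9965, 91.0% were recovered (85.1% at a log2 change of 1 and 95.6% at 2), and 11 unchanged genes were called. In the data, most members varied more among MG53-TG samples and 44.7% of all genes tested were called. These rates therefore do not describe the real comparison.

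The members and gene lists were chosen with earlier results of these data known. Named are all members and, of each list of enzymes, receptors or transporters, up to 4 called genes with the largest change, plus Nr1i2, Nr1i3, Ahr and Por. Cell type and region markers are given as counts and sums, with a few named after seeing their values. Of the other genes, some chosen after seeing their values complete a family or list. Alternatives were a pseudocount of 0.1, no filter or one of 2 FPKM, median-of-ratios and quantile scaling, a replicate block, other ways to sum or assign events, absent values as 0, and leaving out each sample. Leaving out MG53-TG samples in pairs was added after seeing the data. Promoter sequences are from RefSeq (GRCm38.p6), matched by symbol for 9 of 9 members, and the exon sequence is from GENCODE vM21 transcripts.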

Additional observations from a re-analysis of the deposited data

Results flagged for a closer look

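The Cyp2d26 value of WT sample 1, 33.1 FPKM, lay far from the other 3 WT values of 36.2 to 36.7 FPKM relative to their whole range. Of the 18 groups of 4 samples examined this way, chance alone would single out about 0.9. Without WT sample 1 the log2 fold change of Cyp2d26 was 2.46.

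Of the 8 events that carry the Cyp2c66 identifier, 4 lie on the opposite strand and were left out of its value. They include 2 antisense start events, 1 listed only in MG53-TG sample 3 (2.96 FPKM) and a different one listed only in MG53-TG sample 4 (2.79 FPKM), and the other 6 samples had no entry for either. Whether the library kept strand is not given in the sources used here, so reads of Cyp2c66 and of an antisense RNA cannot be told apart.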

How the results depend on the processing

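The 8 called members remained called in the same direction under all 22 alternatives, and Cyp27a1 under none. The log2 fold change ranged over the alternatives from 3.99 to 4.86 for Cyp3a11, 2.17 to 3.37 for Cyp3a13, 3.12 to 4.39 for Cyp3a25, 2.31 to 2.87 for Cyp2c65, 3.07 to 3.43 for Cyp2c66, 1.89 to 2.60 for Cyp2b10, 2.22 to 2.77 for Cyp2d26, 2.88 to 3.33 for Cyp4f14 and -1.06 to -0.08 for Cyp27a1. Other P450 genes called numbered 14 to 19. Over all genes, 3465 (end events only) to 5572 (without MG53-TG samples 1 and 2) were called, against 4596. Same-numbered samples did not clearly deviate together (r of -0.05 to 0.09), and the labels used here give no pairing. With 4 samples per group, and MG53-TG samples 3 and 4 apart from 1 and 2, these values cannot exclude a pairing. With a replicate block all 8 members and 16 other P450 genes stayed called, and 4196 genes in all. FPKM without depth limits what can be said of genes near or under 1 FPKM, such as Cyp27a1, and of absent entries.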

Other observations

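Some P450 genes had values only when events were assigned by exon position alone, because the identifier in the files named another gene there. Cyp4a10, a fatty acid omega-hydroxylase and a standard target gene of the receptor Ppara, had no entry in WT, whereas MG53-TG samples 1 to 4 had 3.82, 2.98, 4.36 and 4.90 FPKM (limma adjusted p = 7.44e-06 in the fit by position alone). Cyp4f16 was at 6.46, 9.86, 9.61 and 11.9 FPKM in WT and at 29.3, 24.6, 68.1 and 41.7 FPKM in MG53-TG (log2 fold change 1.92 ± 0.30, limma adjusted p = 0.00135). Cyp2d10 was listed at 0.393 FPKM in WT sample 1 only and at 3.44, 3.57, 3.32 and 2.02 FPKM in MG53-TG. All 3 have close relatives in the genome, so that reads may be shared between copies.

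Cyp2b10 and Cyp2c37, both higher in MG53-TG samples 1 and 2 than in 3 and 4, were joined in this by 3 other tested P450 genes. Cyp2u1, called higher, was at 7.63 and 6.53 against 3.18 and 3.70 FPKM, Cyp39a1, called lower, at 2.94 and 3.29 against at most 2.24 FPKM, and Cyp20a1, not called, at 9.54 and 8.60 against 6.35 and 6.32 FPKM. The transporter gene Abcc2 varied far more among the MG53-TG samples, at 10.1, 2.01, 69.2 and 108 FPKM against 22.0 to 23.8 FPKM in WT, and was not called (limma adjusted p = 0.953).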
